A study of Mus musculus with 2 samples.

Results

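Cells that carried transcripts of both Cdx2 and T, here called Cdx2+T+ cells, were examined in mouse gastruloids. They were chosen by their UMI counts: at least 1 Cdx2 UMI, at least 1 T UMI and 0 Foxa2 UMIs. A UMI is a molecular tag that marks 1 captured RNA molecule. The rule found 459 cells among 19294 kept cells, of which 275 of 8707 came from the library labelled wild type (the WT-labelled library) and 184 of 10587 from that labelled Sp5 and Sp8 double knockout (the dko-labelled library). Their comparison cells were 4623 T-only cells, with at least 1 T UMI and none of Cdx2 or Foxa2 (1917 and 2706). Because the rule used Cdx2, T and Foxa2, the levels of these 3 genes are given as a description.

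Gastruloids are aggregates of embryonic stem cells that begin to form a body axis in culture. About 300 R1 mouse embryonic stem cells, wild type (WT) or Sp5/8dko, were seeded per aggregate in serum-free N2B27 medium. Both groups received 3 µM CHIR, an inhibitor of GSK3 that activates Wnt signalling, after 2 days and were collected 12 hours later, at day 2.5. Aggregates of a genotype were pooled into 1 single-cell library, so there were 2 libraries and no replicates; genotype, pool and library cannot be told apart, and no test between genotypes was possible. The labels do not say whether the double knockout line is 1 clone.

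Cdx2 encodes a caudal-type homeobox factor that patterns the posterior body and activates trunk Hox genes, and it also specifies trophectoderm. T (Brachyury) encodes the T-box factor of the primitive streak and tail bud. Cells with both factors occur in the posterior streak and caudal epiblast, where Wnt and FGF signalling sustain progenitors of the spinal cord and paraxial mesoderm. Sp5 and Sp8 encode zinc-finger factors that bind GC-rich elements and are targets of Wnt signalling.

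The sequences just before the starts of 6 genes on which the comparisons turn are shown to place these genes in the genome. Each is 250 bases upstream of the RefSeq start on build GRCm38.p6, written 5′ to 3′ on the strand of the gene. Capitals mark matches, on either strand, to the TCF/LEF letters ATCAAAG, the GC box letters GGGCGG or the caudal homeobox letters TTTATNG. Cdx2 and T chose the cells, Gbx2, Nkx1-2 and Evx1 are posterior homeobox genes described below, and Sp5 is a targeted gene.
Cdx2, chr5:147307250-147307499, minus strand: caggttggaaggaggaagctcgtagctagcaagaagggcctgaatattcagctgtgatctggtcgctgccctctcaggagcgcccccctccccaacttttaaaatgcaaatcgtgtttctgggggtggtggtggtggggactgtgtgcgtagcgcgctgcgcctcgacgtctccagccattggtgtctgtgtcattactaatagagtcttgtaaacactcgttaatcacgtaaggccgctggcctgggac
T, chr17:8434173-8434422, plus strand: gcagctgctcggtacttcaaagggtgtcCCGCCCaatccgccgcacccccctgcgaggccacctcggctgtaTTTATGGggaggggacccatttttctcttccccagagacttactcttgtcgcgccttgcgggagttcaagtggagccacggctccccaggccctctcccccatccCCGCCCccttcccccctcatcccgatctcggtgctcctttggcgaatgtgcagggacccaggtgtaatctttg
Gbx2, chr1:89931177-89931426, minus strand: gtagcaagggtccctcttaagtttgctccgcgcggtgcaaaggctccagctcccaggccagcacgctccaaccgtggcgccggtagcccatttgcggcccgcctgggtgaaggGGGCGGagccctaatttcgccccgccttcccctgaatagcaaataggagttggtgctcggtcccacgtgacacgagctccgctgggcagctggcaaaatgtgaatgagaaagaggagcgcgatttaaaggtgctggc
Nkx1-2, chr7:132599638-132599887, minus strand: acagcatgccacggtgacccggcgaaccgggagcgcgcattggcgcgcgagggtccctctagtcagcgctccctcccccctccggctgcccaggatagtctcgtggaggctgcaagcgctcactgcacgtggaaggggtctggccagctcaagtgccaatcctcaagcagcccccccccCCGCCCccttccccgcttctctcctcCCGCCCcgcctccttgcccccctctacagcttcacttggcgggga
Evx1, chr6:52313248-52313497, plus strand: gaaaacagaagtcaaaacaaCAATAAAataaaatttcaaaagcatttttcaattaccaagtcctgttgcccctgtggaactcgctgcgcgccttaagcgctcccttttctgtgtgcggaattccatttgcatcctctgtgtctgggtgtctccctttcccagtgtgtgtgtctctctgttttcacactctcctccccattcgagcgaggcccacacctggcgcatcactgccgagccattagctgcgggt
Sp5, chr2:70474673-70474922, plus strand: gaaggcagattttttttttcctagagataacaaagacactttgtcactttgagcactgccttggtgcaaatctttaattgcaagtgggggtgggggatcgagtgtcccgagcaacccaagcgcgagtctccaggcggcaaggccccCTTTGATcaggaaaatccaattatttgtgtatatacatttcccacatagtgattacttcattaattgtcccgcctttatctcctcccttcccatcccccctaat

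The T window held 2 GC box matches and 1 caudal match, the Nkx1-2 window 2 GC box matches, the Gbx2 window 1 GC box match, the Evx1 window 1 caudal match and the Sp5 window 1 TCF/LEF match. The Cdx2 window held none of the 3 letter strings. Over the windows of 27025 genes, 35.4% held a GC box, 11.3% the caudal letters and 3.72% the TCF/LEF letters. Of the 40 caudal and neuromesodermal genes listed, 23 had a window; 11 of these held a GC box, 4 the caudal letters and 0 the TCF/LEF letters. A match describes the letters and not a bound site.

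The libraries held 104083993 UMIs (WT-labelled) and 103187025 UMIs (dko-labelled) over all barcodes, and 97157331 and 97644169 in kept cells. The labels state 9238 and 11190 captured cells with median gene counts of 5333 and 5398, against 8707 and 10587 kept cells with medians of 3275 and 2884 here. Of the barcodes kept, 27 occurred in both libraries. Sp5, the first check of the genotype, was higher in the dko-labelled library: in Cdx2+T+ cells it stood at 174 CPM (UMIs scaled to the same total per summed class) in the WT-labelled library and at 597 CPM in the other. Sp8 stood at 25.1 and 45.4 CPM. The targeted transcripts thus went against the label, and 3′ counts do not tell an edited allele from an intact one. Every direction between libraries below is between the labelled libraries and does not stand for loss of Sp5 or Sp8.

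At the depth as sequenced, Cdx2+T+ cells made up a larger share of the WT-labelled library than of the dko-labelled library; at equal depth the intervals overlapped. The share was 3.16% of kept cells (exact Clopper-Pearson 95% interval 2.80 to 3.55) against 1.74% (1.5 to 2.01). These intervals, like all below, cover counting error alone and say nothing of the spread between cultures. Among cells with T and without Foxa2, 12.5% (11.2 to 14.0) had a Cdx2 UMI in the WT-labelled library and 6.37% (5.50 to 7.32) in the other. Among cells with neither T nor Foxa2 the shares were lower, 6.71% (6.11 to 7.35) and 4.26% (3.81 to 4.75). Depth differed between these groups: the T-positive cells had medians of 11759 and 9729 UMIs and the T-negative cells 10124 and 8233. After each cell was thinned to 2500 UMIs, Cdx2 was found in 4.90% (3.40 to 6.82) of T-positive and 2.08% (1.77 to 2.41) of T-negative cells of the WT-labelled library. The thinned shares of the dko-labelled library were 2.44% (1.6 to 3.56) and 1.54% (1.30 to 1.81), with overlapping intervals. Only 33 and 26 cells still met the whole rule after thinning, which is 0.379% (0.261 to 0.532) and 0.246% (0.16 to 0.360) of kept cells, with overlapping intervals. The kept cells had medians of 10571 and 8637 UMIs before thinning.

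**Figure D1:**
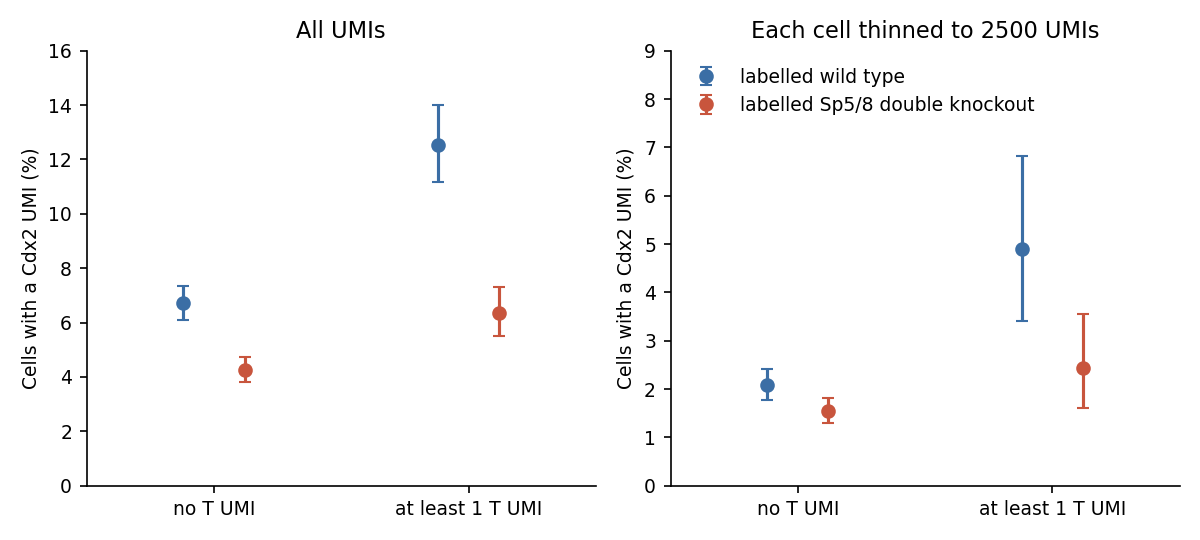
Share of Foxa2-negative kept cells with a Cdx2 UMI (%), by presence of a T UMI, from all UMIs (left) and after thinning to 2500 UMIs (right); points are libraries and bars exact 95% intervals. With all UMIs the share is higher beside T in both libraries, and after thinning the intervals in the dko-labelled library overlap.

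Most members met the rule by a single Cdx2 molecule. In the WT-labelled library 205 of 275 cells (74.5%) had 1 Cdx2 UMI, 48 had 2 and 22 had 3 or more, with a maximum of 4. Of the dko-labelled members, 156 of 184 cells (84.8%) had 1, 24 had 2 and 4 had 3 or more. T was at 1 UMI in 149 and 105 of the cells and reached 21 and 8. Just outside the rule lay cells with 0 Cdx2 UMIs and 12 and 18 cells with Cdx2, T and a Foxa2 UMI.

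Whether a single UMI reflects expression was not settled by a comparison with naive-marked cells. Naive-marked cells were taken as cells with at least 3 UMIs over Zfp42, Klf4, Tfcp2l1 and Esrrb, a class chosen after seeing the data. Cdx2 was found in 10.9% (6.35 to 17.1) of 147 such cells, with a median of 12465 UMIs, in the WT-labelled library. All kept cells of that library had 8.25% (7.68 to 8.84) at a median of 10571 UMIs. Shares in the dko-labelled library were 5.45% (2.03 to 11.5) of 110 naive-marked cells, with a median of 11378 UMIs, and 4.93% (4.53 to 5.36) of all kept cells, with a median of 8637. The 12.5% and 6.37% among T-positive cells lie within these wide intervals and by themselves do not settle whether a single UMI reflects expression. T was found in 29.3% and 36.4% of naive-marked cells and in 26.0% and 29.3% of all kept cells. Since naive-marked cells were deeper and held T at no lower a share, they cannot set a background level for either gene. Barcodes of 100 UMIs or fewer, which hold mostly free RNA, had Cdx2 at 6.45 and 5.39 CPM and T at 31.1 and 36.4 CPM.

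Members were not deeper than their comparison cells in the WT-labelled library. Their median was 11139 UMIs and 3394 genes, against 11862 and 3517 in T-only cells. Medians in the dko-labelled library were 9791 UMIs and 3144 genes against 9724 and 3107. The median mitochondrial share was 3.6% and 3.86% in members and 3.79% and 4.03% in T-only cells. Removing the highest doublet scores, 6.96% and 8.47% of kept cells, would take 12.0% and 15.2% of members and 9.08% and 10.7% of T-only cells; the part of doublets in the shares was not tested.

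The posterior identity that the pair of markers names was barely seen in Hox transcripts. Over 39 Hox genes the members held 26 UMIs (7.40 CPM) in the WT-labelled library and 32 (15.5 CPM) in the dko-labelled library. A Hox UMI was found in 8.36% (5.38 to 12.3) and 5.43% (2.64 to 9.77) of members, against 5.43% (4.45 to 6.54) and 3.07% (2.45 to 3.79) of T-only cells, with overlapping intervals. After thinning, 1.09% and 1.63% of members and 0.939% and 0.739% of T-only cells had one. Of the 25 caudal genes listed, 9 had no UMI in the members of either library: Hoxa3, Hoxb3, Hoxa4, Hoxb4, Hoxc4, Hoxd4, Hoxb5, Hoxc8 and Evx2. The cells are therefore named here by the 2 genes that chose them.

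The Hox sum of the dko-labelled library rested on a single cell. That cell, singled out after its values were seen, held 23 of the 32 Hox UMIs over 10 Hox genes, among them 8 of Hoxb9, 4 of Hoxc6 and 3 of Hoxa10. It had 7271 UMIs in all, 3 of Cdx2 and 1 of T, and it held 2 UMIs of Pou5f1, a pluripotency factor found in 96.9% of kept cells, and none of Epcam, an epithelial adhesion gene found in 92.7%. Without it the other 183 members had 9 Hox UMIs in 9 cells (4.36 CPM, 4.92% of cells) and no Hoxb9. A further 2 kept cells of that library, which are no members, held 32 and 19 Hox UMIs, and in the WT-labelled library the highest cell held 6.

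Cdx1 and Cdx4, the relatives of Cdx2, were near the limit of detection. Cdx1 (on the minus strand of chromosome 18) had 8 UMIs in members (2.28 CPM) against 16 in T-only cells (0.654 CPM) in the WT-labelled library. In the dko-labelled library it had 4 UMIs (1.93 CPM) against 18 (0.642 CPM). The log2 ratios, taken on CPM plus 0.5, were 1.27 (exact conditional 95% interval 0.37 to 3.11) and 1.09 (-0.43 to 3.19), so Cdx1 was apart from T-only cells in 1 library only. Cdx4 had 1 UMI in the members of each library.

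Gbx2 led a small set of genes that stood higher in Cdx2+T+ cells than in T-only cells of both libraries. Counts were summed over cells in each class and a gene was called when its log2 ratio, on CPM plus 0.5, was at least 0.5 in size and of 1 sign in both libraries. Among 7621 genes with a mean of at least 10 CPM, 7 were called higher (0.0919%) and 1 lower (0.0131%). The median ratio over all 7621 genes was 0.00 in each library, with an SD across genes of 0.18 and 0.21. The 7 genes were Gbx2, Nin, Mixl1, Fzd10, Depdc5, Surf1 and Cry2, and the lower gene was Cdk5. With no replicates these calls state a size and not a test.

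Gbx2 encodes a homeobox factor of the posterior epiblast and hindbrain (chromosome 1, 89927956 to 89931179, minus strand; all gene positions are GENCODE M21 on GRCm38). It stood at 26.5 CPM in members (93 UMIs) and 15.7 CPM in T-only cells (383 UMIs) of the WT-labelled library, and at 21.3 CPM (44 UMIs) and 10.5 CPM (295 UMIs) in the other. The log2 ratios were 0.74 (0.41 to 1.09) and 0.98 (0.52 to 1.47). Members thus stood above T-only cells in each library, though not above the other classes described below. T-only cells also lay below cells with none of Cdx2, T and Foxa2, with log2 ratios of -0.74 (-0.92 to -0.60) and -0.99 (-1.22 to -0.85). Gbx2 shares its locus with D130058E05Rik on the opposite strand, and the handling of strand in the counting is not given in the sources used here; that transcript stood at 6.55 against 3.88 CPM and 6.76 against 3.96 CPM. Without the cells low on chromosome 11 or 6 described below, the Gbx2 ratios were 0.47 and 0.60, and it was no longer called.

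Nkx1-2, a homeobox gene of the caudal epiblast and neuromesodermal progenitors (chromosome 7, 132594878 to 132599637, minus strand), stood at 31.6 against 19.0 CPM in the WT-labelled library. In the dko-labelled library it stood at 21.7 against 15.8 CPM. Its ratio of 0.72 (0.42 to 1.04) was past the limit in the former, and its ratio of 0.45 (-0.01 to 0.91) in the latter was not. Without the cells low on chromosome 11 or 6 the Nkx1-2 ratios were 0.69 and 0.17. Evx1, a homeobox gene of the posterior streak (chromosome 6, 52313498 to 52318378, plus strand), was just short of the limit. It stood at 25.9 against 17.7 CPM and at 18.8 against 13.2 CPM, with ratios of 0.54 (0.21 to 0.88) and 0.4968 (-0.00 to 0.99). In the dko-labelled library its ratio turned to -0.45 with 2 or more Cdx2 UMIs and to -1.70 on thinned cells. Without the low cells the Evx1 ratios were 0.38 and 0.22. Evx1 overlaps Evx1os on the opposite strand, which stood at 6.26 against 3.68 CPM and 8.21 against 4.32 CPM; Nkx1-2 overlaps Gm16764 there and Fgfr2 on its own strand.

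The wider neuromesodermal and tail bud list lay closer to 0. Of its 15 genes 11 reached the minimum level, 1 (Gbx2) was called higher and 0 lower. Ratios were above 0 in both libraries for 7 and below 0 in both for 1, where all genes gave 28.3% and 27.2%. The list median was 0.14 and 0.03. Fgf8, a growth factor of the streak and caudal epiblast, stood at 161 against 139 CPM and 208 against 204 CPM (ratios 0.21 and 0.03). Sox2, the neural partner of T in neuromesodermal progenitors, stood at 22.5 against 21.1 CPM and 16.9 against 17.2 CPM. Wnt3a and Cyp26a1, a Wnt ligand and a retinoic acid-degrading enzyme of the tail bud, each had 1 UMI in members of the WT-labelled library and 0 in the other, which allows up to 1.45 CPM. Tbx6 and Msgn1, transcription factors of paraxial mesoderm, were likewise near 0: Tbx6 had 1 and 0 UMIs in members, and Msgn1 had 0 in all 4 sums.

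Of the streak genes only Mixl1 was called. Mixl1, a homeobox factor of the mesoderm and endoderm progenitors of the streak (chromosome 1, 180693043 to 180697034, minus strand), stood at 33.3 CPM in members and 22.2 CPM in T-only cells of the WT-labelled library, and at 45.9 and 24.0 CPM in the other. The ratios were 0.57 (0.28 to 0.87) and 0.92 (0.61 to 1.25). The call was lost when cells with Foxa2 were let in (0.41 and 0.83), with 2 or more Cdx2 UMIs (0.52 and 0.08) and on thinned cells (-0.49 and 0.37). Of the 14 streak genes 10 reached the minimum level, with ratios above 0 in both libraries for 4, below 0 in both for 1 and medians of 0.06 and 0.06. Eomes, a T-box factor of the streak, stood at 144 against 136 CPM and 249 against 235 CPM. Mesp1, a factor of nascent mesoderm, stood at 1.14 against 4.46 CPM in the WT-labelled library and at 0.483 against 0.357 CPM in the other, each under the minimum level.

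Among Wnt pathway genes the receptor Fzd10 was called higher. Fzd10 (chromosome 5, 128600844 to 128604093, plus strand) stood at 47.3 against 30.7 CPM and 46.9 against 26.2 CPM, with ratios of 0.61 (0.37 to 0.87) and 0.83 (0.52 to 1.15). When T-only cells were weighted to the members' mix of chromosome states the ratios were 0.45 and 0.79, and on thinned cells 0.83 and 0.40; in neither case was it called. It was 1 of 8 Wnt ligands and receptors at the minimum level, of 16 listed, and 2 of the 8 were above 0 and 1 below 0 in both libraries. Of the 16 Wnt feedback genes and targets 9 reached that level and none was called in both libraries. Of these 9, 6 were above 0 and 1 below 0 in both libraries, and the medians were 0.25 and 0.16. On thinned cells 2 were above and 2 below 0 in both, with medians of 0.19 and -0.04, and without low-chromosome cells the medians were 0.11 and 0.07. Lef1, a nuclear effector of Wnt signalling, stood at 96.2 against 71.8 CPM and 83.6 against 77.4 CPM, with ratios of 0.42 (0.25 to 0.59) and 0.11 (-0.12 to 0.34). Sp5 stood at 174 against 121 CPM and 597 against 526 CPM, with ratios of 0.52 (0.40 to 0.65) and 0.18 (0.10 to 0.27). It was thus higher in members of each library and past the limit in the WT-labelled library. Without low-chromosome cells the Sp5 ratios were 0.59 and 0.07. When T-only cells were weighted to the members' mix of chromosome states they were 0.43 and 0.15, both under the limit.

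The other 5 called genes belong to no developmental list. Nin, a centrosome protein that anchors microtubules, stood at 14.5 against 8.55 CPM and 15.9 against 8.03 CPM (ratios 0.73 and 0.95). On thinned cells the Nin ratios were 0.93 and 0.49, and it was not called. Depdc5, a subunit of the GATOR1 complex that restrains mTORC1, stood at 19.1 against 13.1 CPM and 20.3 against 12.5 CPM (0.52 and 0.68). With 2 or more Cdx2 UMIs the Depdc5 ratios were 0.45 and 0.34, and it was not called. Surf1, an assembly factor of cytochrome c oxidase, stood at 17.9 against 12.2 CPM and 18.8 against 12.6 CPM (0.53 and 0.57). Its ratio in the WT-labelled library was -0.37 without the cells low on chromosome 11 or 6, and its call was also lost with depth weights (0.495 there), without the Foxa2 condition (0.48) and with chromosome-state weights (0.46). With 2 or more Cdx2 UMIs its ratio in the dko-labelled library was -1.83. Cry2, a repressor of the circadian clock, stood at 17.7 against 12.0 CPM and 19.8 against 13.8 CPM (0.54 and 0.51). Without those low cells its ratios were 0.33 and 0.25, and its call was also lost at a 5% mitochondrial limit (0.35 in the dko-labelled library), without the highest doublet scores (0.49 in the WT-labelled library), under TMM scaling (0.48 in the dko-labelled library), with depth weights (0.47 and 0.45) and without the Foxa2 condition (0.49 and 0.46). Cdk5, a kinase best known from neurons, was lower in members, at 9.40 against 14.3 CPM and 7.25 against 13.6 CPM (-0.58 and -0.86), from 33 and 15 UMIs in members. With 2 or more Cdx2 UMIs its ratios were -0.02 and -0.09, and on thinned cells -1.14 and -0.09, so it was called in neither case. These sums are small, and the intervals of Cry2 began at 0.14 and 0.02 and those of Cdk5 ended at -0.09 and -0.16. Nin, Surf1 and Cry2 overlap genes on the opposite strand, and Depdc5 overlaps Gm24003 and Gm43693 on its own.

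**Figure D2:**
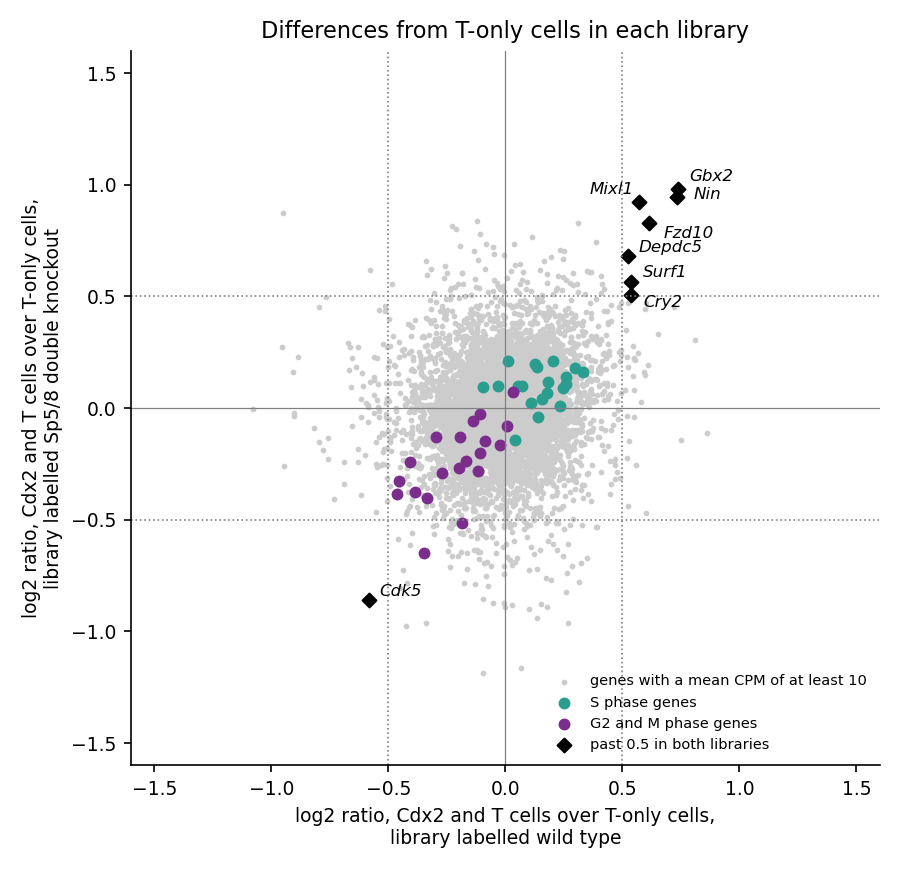
Log2 ratio of Cdx2+T+ over T-only cells for each of 7621 genes, in the WT-labelled library (x) and the dko-labelled library (y); dotted lines mark 0.5 in size, diamonds the 8 genes past it in both. S phase genes lie right of or above 0, with 16 of 20 above 0 in both libraries, and 18 of 20 G2 and M phase genes lie below 0 in both.

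Cell cycle genes lay mostly to 1 side of 0, S phase genes above it and G2 and M phase genes below it. Of 20 S phase genes 16 were above 0 and none below 0 in both libraries, against 28.3% and 27.2% of all genes, with medians of 0.15 and 0.10. Of 20 G2 and M phase genes 1 was above 0 and 18 were below 0 in both, with medians of -0.19 and -0.24. These genes summed to 5250 and 4873 CPM in members and to 5772 and 5299 CPM in T-only cells. Cells with none of Cdx2, T and Foxa2 had 5293 and 4924 CPM, so members lay near these cells and T-only cells lay above both. No gene of either list was past 0.5 in both libraries. On thinned cells, with 33 and 26 members, the S phase count was 8 above and 5 below 0 (medians 0.14 and 0.04) and the G2 and M phase count 1 above and 13 below. Pcna, the sliding clamp of DNA replication, stood at 281 against 235 CPM and 212 against 193 CPM. Rrm2, a subunit of ribonucleotide reductase, stood at 203 against 176 CPM and 177 against 153 CPM. Aurka, a kinase of the mitotic spindle, stood at 79.7 against 102 CPM and 67.2 against 106 CPM (ratios -0.35 and -0.65). Aurkb, a kinase of the chromosomal passenger complex, stood at 68.6 against 94.2 CPM and 69.6 against 87.3 CPM (ratios -0.45 and -0.33).

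The cycle pattern was also present beside Cdx2 in cells without T. Comparing cells with Cdx2 and no T or Foxa2 (427 and 312) with cells that had none of the 3 (5937 and 7012), 16 of 20 S phase genes were again above 0 in both libraries and 18 of 20 G2 and M phase genes below 0. All genes gave 29.3% and 27.3% in that comparison, and 2 genes were higher (0.0262%) and 3 lower (0.0394%) by 0.5 in both libraries. The comparisons share no cells, though the classes come from the same libraries. The part of cell cycle phase in the differences of other genes was not tested.

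Of the lists of other cell types, those of trophoblast, lateral mesoderm and germ cells had low sums in members of both libraries. Each of these sums was above that of T-only cells. The pluripotency and neural lists, and the anterior streak list mainly through Trh, were present in both members and T-only cells. Their part in the results was not tested. The 12 trophoblast genes summed to 8.83 CPM in members and 7.24 CPM in T-only cells of the WT-labelled library, and to 13.5 and 7.0 CPM in the other, with Elf5 and Plac1 at 0 in members and no gene at the minimum level. Members held 31 and 28 UMIs of these genes. In the WT-labelled library they summed to 12.4 CPM in Cdx2-only cells and 10.3 CPM in cells with neither gene. The matching sums of the dko-labelled library were 14.3 and 7.94 CPM. The 12 extraembryonic endoderm genes summed to 60.4 against 60.6 CPM and 53.6 against 56.5 CPM, with Sox17, Afp, Ttr, Cubn and Apob at 0 in members. Most of the members' sums came from Sparc. In WT-labelled members with 1 and with 2 or more Cdx2 UMIs it held 124 and 57 UMIs, of 212 for the list. In the matching dko-labelled members it held 70 and 20, of 111. The 12 lateral and extraembryonic mesoderm genes summed to 27.6 against 20.0 CPM and 17.4 against 15.0 CPM, with none at the minimum level. The 8 germ cell genes summed to 29.9 against 27.2 CPM and 34.8 against 30.2 CPM. The 13 early neural genes summed to 140 against 117 CPM and 97.6 against 87.5 CPM; 3 reached the minimum level, none was called, and 2 were above 0 in both libraries. Of 13 naive pluripotency genes, which summed to 298 against 328 CPM and 308 against 321 CPM, 4 reached the minimum level, with 0 above and 2 below 0 in both libraries. Nanog, a pluripotency factor, stood at 118 against 137 CPM and 124 against 145 CPM (ratios -0.21 and -0.22). The 14 anterior streak and endoderm genes summed to 575 against 656 CPM and 915 against 1014 CPM; 3 reached the minimum level and none was called. Most of these sums came from Trh, a hormone gene, at 514 against 585 CPM and 797 against 902 CPM (-0.18 in each). Cer1, Sox17, Noto and Shh of this list were at 0 in members of both libraries.

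Primary cilium genes, the subject of the series title, were spread evenly around 0. Of 38 genes 25 reached the minimum level and none was called; 7 were above 0 and 7 below 0 in both libraries, with medians of -0.02 and 0.00. Ift88 and Ift81, carriers of the intraflagellar transport train, stood at 11.7 against 13.1 and 12.5 against 15.7 CPM in the WT-labelled library, and at 7.73 against 12.4 and 12.1 against 16.5 CPM in the other. Of 11 Hedgehog genes 6 reached the level, with 4 above and 0 below 0 in both libraries and medians of 0.15 and 0.03.

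The leading genes differed in which of the 2 markers they followed. Gbx2 in the WT-labelled library stood at 40.2 CPM in Cdx2-only cells, 26.5 CPM in members, 26.5 CPM in cells with neither gene and 15.7 CPM in T-only cells. In the dko-labelled library it stood at 26.2, 21.3, 21.5 and 10.5 CPM in the same order. The members and the cells with neither gene did not differ beyond their intervals, and in each library T-only cells were lowest. Mixl1 in the WT-labelled library stood at 33.3 CPM in members, 22.2 CPM in T-only cells, 13.2 CPM in Cdx2-only cells and 5.73 CPM in cells with neither gene. Levels in the dko-labelled library were 45.9, 24.0, 16.1 and 8.68 CPM. The 4 classes held the same order in both libraries, with intervals apart from each other. Evx1 in the WT-labelled library stood at 25.9 CPM in members, 17.7 CPM in T-only cells, 16.4 CPM in Cdx2-only cells and 7.55 CPM in cells with neither gene. In the dko-labelled library it stood at 18.8, 13.2, 6.98 and 7.30 CPM, so cells with Cdx2 alone lay above cells with neither gene in the former library and had overlapping intervals in the latter. Fzd10 stood at 47.3 CPM in members and 46.2 CPM in Cdx2-only cells of the WT-labelled library, with overlapping intervals, and at 46.9 and 34.2 CPM in the other. Cdk5 and Depdc5 were not of 1 direction beside Cdx2 alone: the ratios of Cdx2-only cells over cells with neither gene were 0.27 and -0.08 for Cdk5 and 0.08 and -0.37 for Depdc5.

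**Figure D3:**
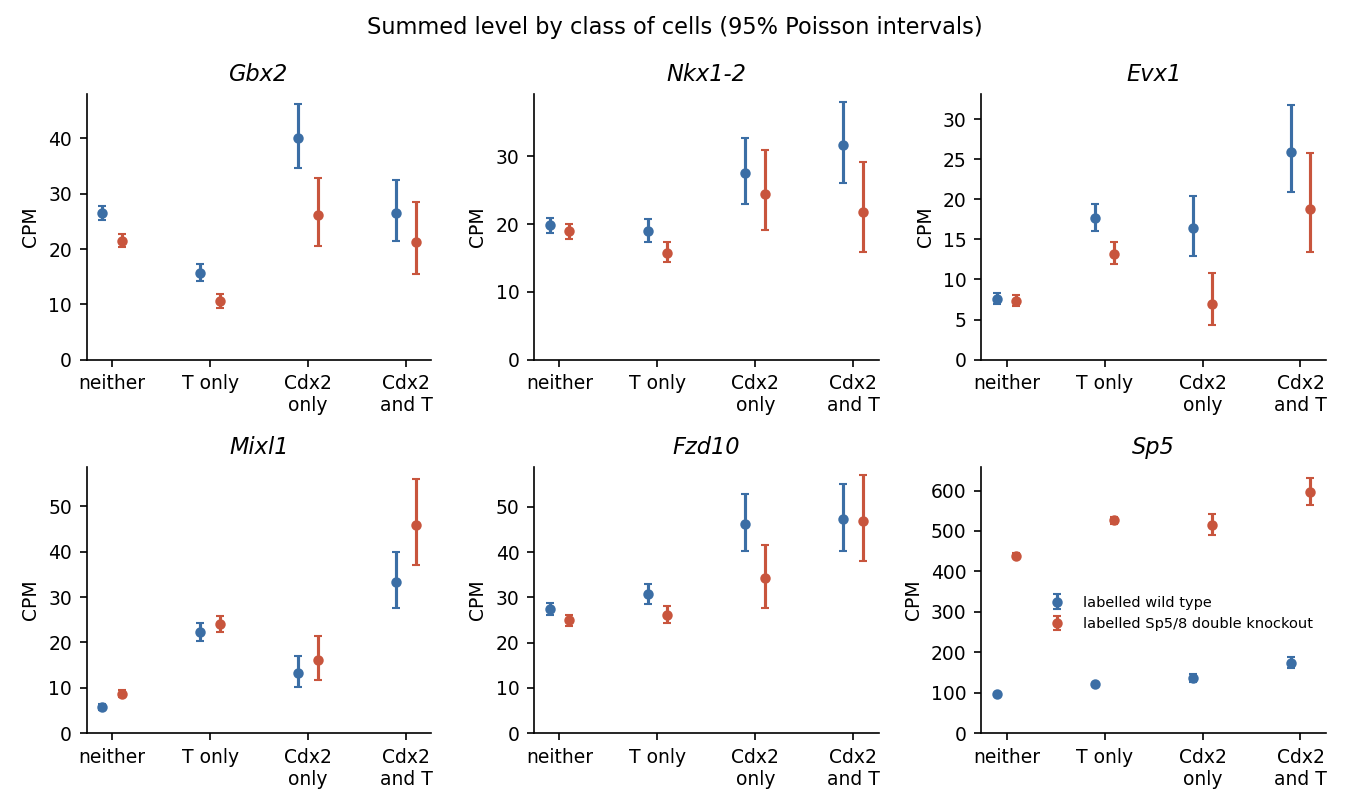
Level (CPM of summed UMIs) of 6 genes in cells with neither Cdx2 nor T, T only, Cdx2 only and Cdx2 and T, all without Foxa2; points are libraries and bars exact Poisson 95% intervals. Mixl1 and Sp5 are highest in Cdx2+T+ cells of each library, while Gbx2 in the WT-labelled library is highest, at 40.2 CPM, in cells with Cdx2 only.

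Members with more Cdx2 UMIs had higher values of Gbx2 and Nkx1-2 in the WT-labelled library, within slightly overlapping intervals. There Gbx2 stood at 21.8 CPM (16.5 to 28.4) in the 205 cells with 1 Cdx2 UMI and 38.2 CPM (27.1 to 52.5) in the 70 cells with 2 or more. Nkx1-2 stood at 27.0 CPM (21.0 to 34.2) and 43.3 CPM (31.3 to 58.3). Only 28 dko-labelled cells had 2 or more, and Gbx2 stood at 21.6 CPM (15.3 to 29.7) and 19.1 CPM (7.0 to 41.5). Fzd10 there stood at 39.9 CPM (31.1 to 50.4) and 85.8 CPM (56.5 to 125). Nkx1-2 there stood at 19.4 CPM (13.4 to 27.1) and 35.0 CPM (17.4 to 62.5). Mixl1 went the other way in the dko-labelled library, at 49.6 CPM (39.7 to 61.1) and 25.4 CPM (11 to 50.1), as did Evx1, at 20.5 CPM (14.4 to 28.4) and 9.53 CPM (1.97 to 27.9), and the intervals of all these genes but Fzd10 overlapped there. Mixl1 in the WT-labelled library stood at 33.7 and 32.2 CPM, and Evx1 at 23.4 and 32.2 CPM. T stood at 152 and 172 CPM in the WT-labelled library and at 158 and 137 CPM in the other.

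Between the labelled libraries more genes were past the size limit in members than in T-only cells, whose sums are larger. In members 303 of 7621 genes (3.98%) were higher and 333 (4.37%) lower by 0.5 log2 units in the dko-labelled library, and the intervals of 169 and 215 of them were apart from 0. Those intervals were counted only among genes already past the size limit, from the same UMIs, and not over all genes. They are therefore no separate evidence of a difference. In T-only cells 29 and 42 genes were past the same size. Of these, 21 and 25 were past it in members as well, which is 6.93% and 7.51% of the members' genes and 72.4% and 59.5% of the T-only genes. The SD of the ratios across genes was 0.29 in members and 0.16 in T-only cells, and the median was -0.02 in each.

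The genes with the largest ratios between libraries were Usp26, Sp5, Bmp7, Glrx and Platr3 on the higher side. Sp5 differed by 1.78 (1.64 to 1.92) in members and by 2.12 in T-only cells. Bmp7, a secreted signal of the BMP family, stood at 4.27 CPM in members of the WT-labelled library and 15.0 CPM in the other, a ratio of 1.70 (0.88 to 2.81), against 0.83 in T-only cells. Glrx, a glutaredoxin, stood at 12.5 and 32.9 CPM (1.36, against 0.24 in T-only cells). Platr3, a long non-coding RNA, stood at 5.41 and 13.0 CPM (1.20 against 0.13). Usp26, a deubiquitinase gene, stood at 4.27 and 21.3 CPM (2.19, 1.44 to 3.27, against 0.37 in T-only cells). The sums of these 4 genes in members were 15 to 68 UMIs.

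Grb10, Cdkn1c, Klhl9, Klhl24 and Pdzrn3 were the lowest in the dko-labelled library. Grb10, an imprinted adaptor that restrains insulin and IGF signalling (chromosome 11, 11930508 to 12038683, minus strand), stood at 76.0 and 9.66 CPM in members, a ratio of -2.91 (-3.71 to -2.32), and the ratio in T-only cells was -2.71. Cdkn1c, an imprinted inhibitor of cyclin-dependent kinases, stood at 20.8 and 7.25 CPM (-1.46, against -1.58 in T-only cells). Klhl9 and Klhl24, adaptors of Cullin 3 ubiquitin ligases, had ratios of -1.43 and -1.42 in members and -0.50 and -0.51 in T-only cells. Pdzrn3, a ubiquitin ligase, had -1.41 and -0.32. In dko-labelled members with 1 Cdx2 UMI, Klhl9, Klhl24 and Pdzrn3 held 14, 18 and 11 UMIs, and in those with more 2, 2 and 1. These genes were picked as extremes among 7621 genes, and whether their ratios are particular to members was not tested. Among the listed developmental genes, Eomes had a ratio of 0.79 in members and 0.78 in T-only cells, Otx2, a factor of the anterior epiblast, 1.00 and 0.75, and Sox3, a neural and epiblast factor, -1.04 and -0.68. Of the 25 cilium genes at the minimum level 1 was higher and 3 lower in members, with a median of -0.08. All 7621 genes gave 3.98% higher and 4.37% lower, with a median of -0.02.

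A large part of the members of the WT-labelled library carried a reduced share of UMIs from chromosome 11 or 6. A cell was counted as low when its share of UMIs from a chromosome was at most 0.8 times the median of all kept cells. Chromosome 11 was low in 42.9% (37.0 to 49.0) of members of the WT-labelled library, 35.4% (30.8 to 40.1) of Cdx2-only cells, 22.1% of T-only cells and 13.2% of cells with neither gene. The intervals of members and Cdx2-only cells overlapped. The matching shares in the dko-labelled library were 14.7% (9.90 to 20.6), 8.01% (5.25 to 11.6), 7.72% and 4.61%, again with overlap between the first 2. Chromosome 6 was low in 44.4% and 22.8% of members and 25% and 16% of T-only cells. It was low in 37.7% and 20.5% of Cdx2-only cells and in 17.2% and 18.1% of cells with neither gene. Cells with T and Foxa2 but no Cdx2 were low on chromosome 11 in 38.1% and 10.4% of cases. They were low on chromosome 6 in 49.2% and 31.25%. The intervals of these cells and of Cdx2-only cells overlapped those of members. The values of chromosome 11 fell into a group near 0.7 and a group near 1.0.

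**Figure D4:**
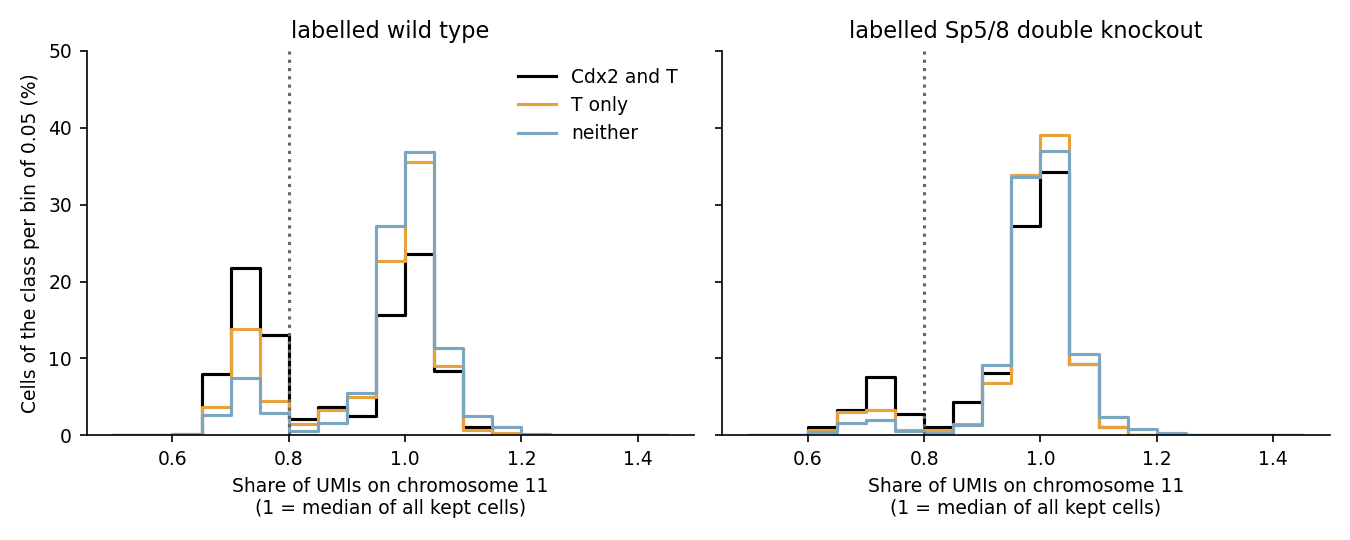
Share of cells (%) per bin of 0.05 in the relative UMI share of chromosome 11 (1 is the median of all kept cells), by class and library; the dotted line marks 0.8. Cdx2+T+ cells lie at or under the line in 42.9% of cases in the WT-labelled library and 14.7% in the dko-labelled library.

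The difference between libraries in the share of Cdx2+T+ cells moved with these chromosome states. In cells low on neither chromosome, members were 1.97% (1.65 to 2.34; 129 of 6539) and 1.6% (1.34 to 1.89; 133 of 8308), with overlapping intervals. In cells low on both they were 7.79% (6.34 to 9.45; 94 of 1207) and 6.95% (4.17 to 10.8; 18 of 259), again overlapping. In cells low on chromosome 11 only the shares were 7.38% (24 of 325) and 2.51% (9 of 358), and in cells low on chromosome 6 only 4.40% (28 of 636) and 1.44% (24 of 1662), with intervals apart in both states. Depth differed between the libraries there: the medians were 9427 and 7494 UMIs with chromosome 11 low only. With chromosome 6 low only they were 11059.5 and 8678.5 UMIs. The shares per state use all UMIs and were not taken at equal depth. Cells low on both chromosomes were 13.9% of the WT-labelled library and 2.45% of the other. Among T-positive cells, Cdx2 was found in 21.8% of those low on chromosome 11 and 9.52% of the others in the WT-labelled library, and in 11.4% and 5.92% in the dko-labelled library. Among T-negative cells the matching shares were 16.2% (13.9 to 18.7) and 5.08% (4.51 to 5.70) in the WT-labelled library and 7.18% (4.70 to 10.4) and 4.11% (3.66 to 4.61) in the other. Cdx2 lies on chromosome 5 and T on chromosome 17. Whether the reduced shares reflect chromosome copy number was not tested.

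**Figure D5:**
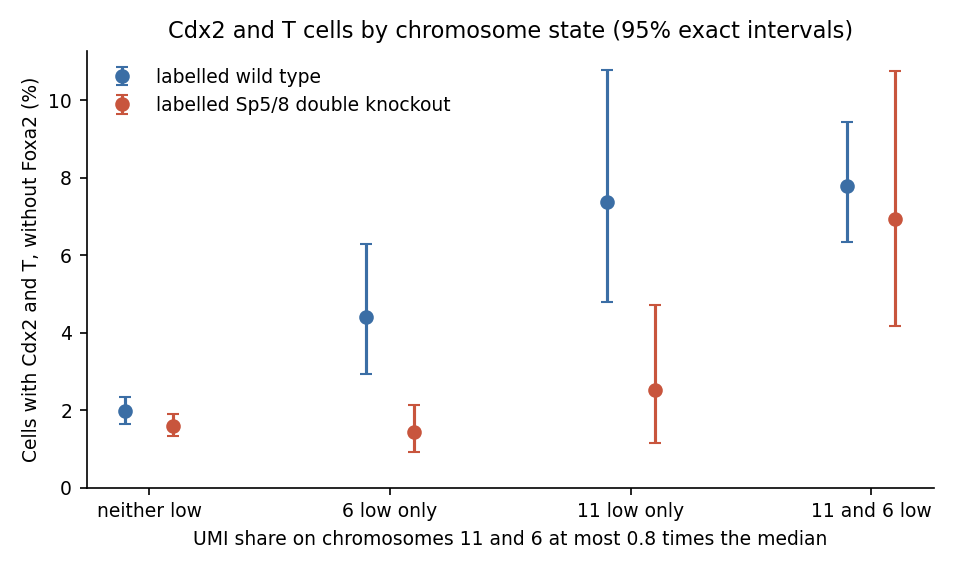
Share of Cdx2+T+ cells (%) among kept cells low on neither, chromosome 6 only, chromosome 11 only or both; points are libraries and bars exact 95% intervals. The intervals of the libraries overlap where neither or both chromosomes are low and are apart where only 1 is low. All UMIs were used, and the WT-labelled cells were deeper in each state.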

How the data were processed

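The authors deposited raw UMI counts per gene and barcode for 2 single-cell 3′ libraries, 1 per genotype, without normalization or a cell filter (6794880 barcodes listed in each). Per the submitters' processing notes, STARsolo, STAR 2.7.9a, Seurat 5.1.0 and build mm10 were used; the labels' protocols name Cell Ranger 8.0.1. Which of these wrote the deposited matrix is not given in the sources used here. Barcodes with at least 2500 UMIs, 1000 genes and at most 10% mitochondrial UMIs were kept. Doublets were left in; an alternative removed the highest doublet scores at 0.8% per 1000 cells (scanpy 1.11.5).

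Counts were summed per library and class, scaled to CPM and compared as log2 ratios with a pseudocount of 0.5, for genes with a mean of at least 10 CPM over the 4 sums. Cdx2, T and Foxa2 were left out. Intervals are exact Poisson, exact conditional or Clopper-Pearson (95%, scipy 1.17.1) and cover counting error only; no test was made, since each genotype has 1 library. Because the classes are chosen by UMIs, a cell thinned to 2500 UMIs was also scored. For chromosome states, UMI shares were divided by the median of all kept cells.

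The 25 gene lists hold 339 genes. The text names Cdx2, T, Foxa2, Sp5 and Sp8, the 10 highest and lowest called genes, the 5 highest and lowest ratios between libraries in members, up to 4 genes per list by size at 5 CPM or more, and any gene of the caudal, neuromesodermal and nascent mesoderm lists. Genes named after their values were seen are marked or serve as overlapping genes. The cells, lists and rules were chosen with earlier results of these data known. Of 32285 gene IDs, 32158 were matched to GENCODE M21. Promoter windows are from RefSeq. For 77.1% of 25174 checked windows, bases just after the RefSeq start occurred in the early part of a GENCODE transcript of that gene. This check bears on orientation and not on the exact start. The ratio, interval and call steps were run on Poisson counts simulated from the class sums with known changes. These counts hold no spread between cells, so the run does not show how the intervals cover real cells. Alternatives were depth, mitochondrial and doublet limits, TMM scaling (edgeR 4.0.16), the CPM minimum, the Cdx2 threshold, the rule on thinned cells, depth weights, no Foxa2 condition and removal of cells low on chromosome 11 or 6. Weights by chromosome state, shares per state and the comparison of Cdx2-only cells were added after seeing the data.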

Additional observations from a re-analysis of the deposited data

Results flagged for a closer look

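Usp26, an X-linked deubiquitinase gene with the highest ratio between libraries in Cdx2+T+ cells, moved in opposite directions within them. Members over T-only cells gave a log2 ratio of -0.949 in the WT-labelled library (4.27 against 8.71 CPM, 15 and 213 UMIs) and 0.872 in the dko-labelled library (21.3 against 11.4 CPM, 44 and 319 UMIs). The intervals, -1.89 to -0.27 and 0.41 to 1.36, lie on opposite sides of 0. They cover counting error only, the difference was not tested between cultures, and the gene was picked as 1 of the extremes among 7621 genes.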

How the results depend on the processing

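No paired analysis was possible because each genotype has 1 library, and for the same reason no replicate could be left out. In all, 31 of the 66 alternative values of the shares and counts of called genes stayed within their limits. The members' share was 0.804% and 0.264% with 2 or more Cdx2 UMIs, 0.379% and 0.246% by the rule on thinned cells, and 1.973% in the WT-labelled library without low-chromosome cells. By chromosome state it was 1.973%, 7.385%, 4.402% and 7.788% in that library (neither, 11 only, 6 only, both low) and 2.514%, 1.444% and 6.95% in the other for the last 3. Genes higher and lower in both libraries, 7 and 1, became 14 and 9 without the highest doublet scores, 22 and 14 at 5 CPM, 2 and 0 at 30 CPM, 74 and 81 with 2 or more Cdx2 UMIs (70 and 28 cells), 187 and 263 on thinned cells (33 and 26), and 11 and 13 without low-chromosome cells, of which 4 and 1 were among the original genes. The lower count was 2 at 5000 UMIs, 2 at a 5% mitochondrial limit and 3 without the Foxa2 condition. Genes higher and lower between libraries in members, 303 and 333, became 568 and 618 at 5 CPM, 58 and 57 at 30 CPM, 1108 and 1340 with 2 or more Cdx2 UMIs, and 1736 and 1701 on thinned cells. The last 2 rules leave fewer cells, so counting error is larger. Directions were reversed for Surf1 in the dko-labelled library (-1.83), Otx2 between libraries (-0.29) and Ift88 between libraries (0.23) with 2 or more Cdx2 UMIs; for Mixl1 in the WT-labelled library (-0.49) and Trib3 between libraries (0.51) on thinned cells; and for Surf1 in the WT-labelled library without low-chromosome cells (-0.37). Cdx2-only over neither gave 0.27 for Cdk5 in the WT-labelled library and -0.37 for Depdc5 in the other. The cause of these changes was not tested. For Evx1 in the dko-labelled library, which is not called, the ratio was -0.45 with 2 or more Cdx2 UMIs and -1.70 on thinned cells. On thinned cells the S phase count fell from 16 above and 0 below 0 to 8 and 5. Single UMIs of Cdx2 (74.5% and 84.8% of members) and of T (54.2% and 57.1%) limit depth.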
